A study of Rattus norvegicus with 62 samples.

Results

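The nuclear receptors that sense drugs, bile acids and sterols in rat liver were followed together with the enzymes that supply the cytochrome P450 system with electrons and heme. A gene was taken when a probe set carried its symbol alone, which gave 9 genes on 12 probe sets, out of 14217 genes with such a probe set and 31099 probe sets in all. They were Nr1i2 (PXR), Nr1i3 (CAR), Rxra (RXR alpha), Hnf4a (HNF4 alpha), Nr1h4 (FXR), Nr0b2 (SHP), Nr1h3 (LXR alpha), Por (cytochrome P450 reductase) and Alas1 (the liver form of 5-aminolevulinate synthase). The rule selects genes by name, and the list was drawn up with earlier results of these data known.

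The 62 arrays held liver RNA of 31 male Crj:CD(SD)IGS rats from a model in which a chemical first initiates and phenobarbital then promotes liver tumours. Methylcellulose (MC) was the vehicle of the initiators. Diethylnitrosamine was given at a low dose of 3 mg/kg (the DEN3 group) and a high dose of 30 mg/kg (the DEN30 group). The other initiators were thioacetamide (TAA, 45 mg/kg), methapyrilene (MP, 100 mg/kg) and acetaminophen, also known as paracetamol (APAP, 1000 mg/kg). Dosing lasted 1 or 2 weeks and was followed by 2 weeks without treatment. Drinking water with 500 ppm phenobarbital (PB) was then given for 6 weeks, or plain water in the MC/water group, which had neither initiator nor promoter. Part of the liver was removed 1 week after PB began, which is the 5w sample, and the same animal gave the 10w sample at the end. Every group thus had the operation between its samples, and every group but MC/water had PB. The 14 groups held 4 or 5 animals each: 5 in DEN3/PB, TAA/PB and MP/PB, and 4 in the other 4 treatments.

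CAR and PXR are the receptors through which phenobarbital and related drugs raise the P450 enzymes, and both bind DNA as pairs with RXR alpha. CAR is held in the cytoplasm until a signal releases it, so its activity is not read from its transcript. HNF4 alpha keeps the genes of mature hepatocytes on, FXR senses bile acids and acts partly by raising SHP, a receptor without a DNA-binding domain that represses others, and LXR alpha senses oxidised sterols. Each microsomal P450 needs heme, whose first and limiting step in liver is made by Alas1, and electrons, which come from Por.

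Array signals were the authors' MAS5 intensities on a linear scale, and all 12 probe sets exceeded a signal of 100 on all 62 arrays. Fits used log2(signal + 25), so a difference of 1 is a doubling on that scale, and a gene was called at a limma adjusted p under 0.05 over all genes tested. The residuals of the fit split the arrays into 2 sets of 30 and 32, with 2 or 3 animals of every group in each and both samples of all 31 animals in the same set. Neither the labels nor the file headers name this split, which was read from the data. It followed the replicate number: in every group replicates 1 and 3 were in set 1 and replicates 2 and 4 in set 2. Replicate 5 was in set 1 in DEN3/PB and in set 2 in TAA/PB and MP/PB. Whether the split came from the arrays or from the animals was not tested. The hepatocyte transcripts Alb, Apoa1, Ttr and Serpina1 had signals between 21835 and 82817 on all arrays. The summed level of the 7 hepatocyte markers ran from 301364 to 336533 in MC/water and from 272855 to 341934 in MC/PB at 5w, and from 272273 to 317274 and 245258 to 331833 at 10w. In whole liver, fewer cells of a type and less RNA per cell cannot be told apart. The labels do not say how animals were assigned to cages or arrays, and the number of arrays limits the precision.

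The start regions of the genes that rose under PB are shown because CAR, PXR and several of their relatives bind variants of the half-site AGGTCA. They run from 250 bases before to 50 bases after the transcription start in the RefSeq annotation of GRCr8, 5′ to 3′ on the gene's strand, with each half-site found on either strand in capitals. Por lies on the minus strand at chr12:26635760-26636059 and Alas1 on the minus strand at chr8:115768593-115768892.
Por: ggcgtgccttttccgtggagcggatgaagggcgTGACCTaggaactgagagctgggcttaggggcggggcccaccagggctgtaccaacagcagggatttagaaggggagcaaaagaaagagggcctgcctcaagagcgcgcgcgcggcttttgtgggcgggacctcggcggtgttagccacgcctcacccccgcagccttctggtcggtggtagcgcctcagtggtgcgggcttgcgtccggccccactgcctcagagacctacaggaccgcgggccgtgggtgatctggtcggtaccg
Alas1: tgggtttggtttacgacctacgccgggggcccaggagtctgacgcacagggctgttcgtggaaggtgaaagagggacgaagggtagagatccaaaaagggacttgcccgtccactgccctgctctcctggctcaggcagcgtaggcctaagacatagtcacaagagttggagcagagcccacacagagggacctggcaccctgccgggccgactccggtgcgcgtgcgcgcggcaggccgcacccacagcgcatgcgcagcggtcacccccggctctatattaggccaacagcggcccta
The Por region held 1 half-site, on the opposite strand and beginning 217 bases before the start, and the Alas1 region held 0. Of 33469 RefSeq regions of this length, 5415 (16.2%) held at least 1. The table matched 8 of the 9 genes by symbol, with 2 starts for Hnf4a, and Por alone among them held the half-site. A match describes these letters only.

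Por and Alas1 were the members that rose with phenobarbital, and Hnf4a was the one that fell, at 5w. Against MC/water, Por was called higher in each of the 6 PB groups at both weeks. Alas1 was called higher in MC/PB at 10w and in MP/PB at 5w, and in the mean of all 6 PB groups at both weeks. The transcripts of the drug receptors themselves, Nr1i2 and Nr1i3, and of Rxra were called by limma in none of these comparisons.

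In MC/PB against MC/water at 5w, 2 of 9 members were called, Por and Hnf4a, where 1.26% of all 10491 genes were. At 10w 2 of 9 were called, Por and Alas1, where 2.26% of 10546 genes were. With the 6 PB groups averaged against MC/water, 3 of 9 were called at 5w, beside 4.23% of all genes, and 2 of 9 at 10w, beside 8.48%. At an unadjusted p under 0.05 these 4 comparisons held 5, 2, 4 and 3 of the 9. Over all genes tested, the shares at that threshold were 10.85%, 14.04%, 16.04% and 21.72% in the same order. The median difference over the members was -0.07 at 5w and -0.10 at 10w for MC/PB, and it was -0.003 and -0.009 over all genes tested. All these comparisons share the 4 MC/water animals of their week.

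**Figure D1:**
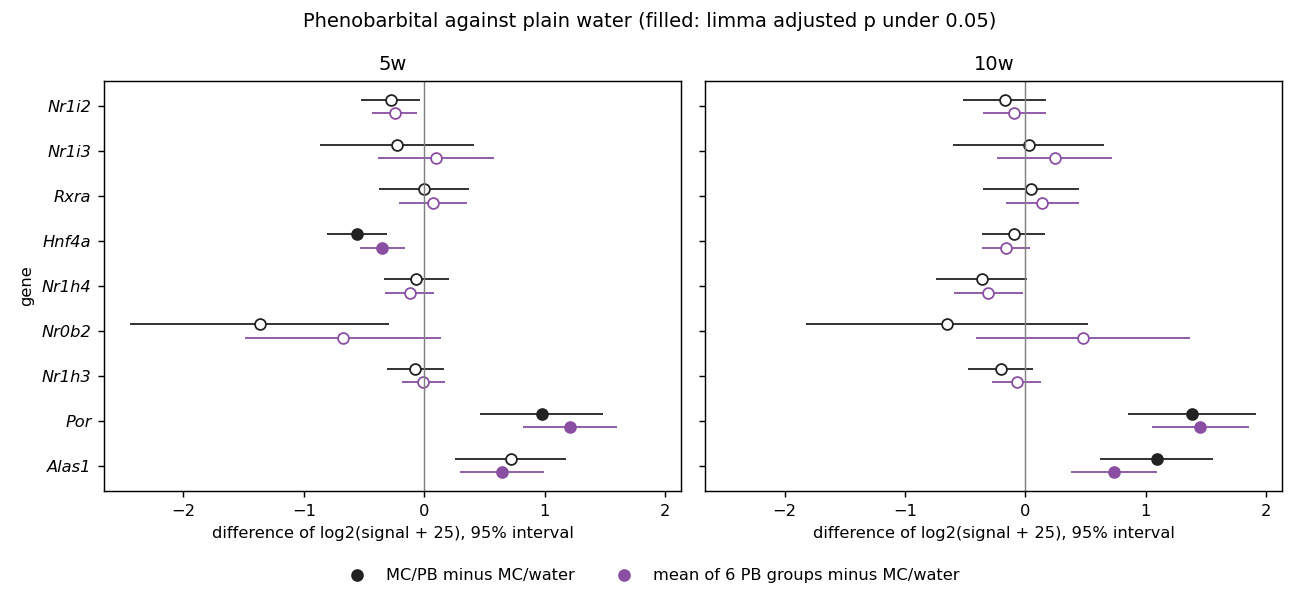
Differences of log2(signal + 25) between PB and plain water at 5w and 10w for the 9 genes, with 95% intervals from limma. Black points are MC/PB minus MC/water and purple points the mean of the 6 PB groups minus MC/water, and filled points passed an adjusted p of 0.05. Por lies between 0.97 and 1.45 in all 4 estimates, while the interval of Nr0b2 in MC/PB at 5w runs from -2.44 to -0.30.

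PXR, encoded by Nr1i2, binds many drugs directly. Its mean signal at 5w was 1458 ± 240.1 in MC/water, 1184 ± 46.7 in MC/PB, 1323 ± 137 in DEN3/PB, 1191 ± 61.4 in DEN30/PB, 1201 ± 183 in TAA/PB, 1141 ± 147 in MP/PB and 1283 ± 164 in APAP/PB (SD, n = 4 or 5). At 10w it was 1289.5 ± 224 in MC/water, 1135 ± 139 in MC/PB, 1148 ± 234 in DEN3/PB, 1067 ± 83.1 in DEN30/PB, 1312 ± 244 in TAA/PB, 1447 ± 329 in MP/PB and 1174 ± 183 in APAP/PB. The highest mean belonged to MC/water at 5w, and none of the 27 PB animals of that week exceeded the highest MC/water animal, while 9 of 27 lay below the lowest. The difference of all PB groups from MC/water at 5w was -0.24 ± 0.09 (SE), with a limma adjusted p of 0.146, and for MC/PB it was -0.28 ± 0.12 with 0.366. MC/water replicate 2 was the lowest of its group at 1139. Without it the difference of all PB groups was -0.36 with an adjusted p of 0.0317, and that of MP/PB was -0.45 with 0.0254. At 10w the difference of all PB groups was -0.09 ± 0.13, with a 95% interval of -0.35 to 0.17. No step between neighbours in the order of the 14 means exceeded the SD within groups, 0.21 on the log2 scale.

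CAR, encoded by Nr1i3, is the receptor most closely tied to phenobarbital. Its mean signal at 5w was 405 ± 128 in MC/water, 359.6 ± 172 in MC/PB, 464 ± 184 in DEN3/PB, 353 ± 179.8 in DEN30/PB, 465 ± 120.4 in TAA/PB, 521 ± 116 in MP/PB and 509 ± 94.6 in APAP/PB (SD, n = 4 or 5). The 10w mean was 429 ± 124 in MC/water, 434 ± 104 in MC/PB, 611 ± 149 in DEN3/PB, 443 ± 255 in DEN30/PB, 562 ± 211 in TAA/PB, 529 ± 213 in MP/PB and 571 ± 14 in APAP/PB. Animals of one group differed widely: the 4 MC/PB animals at 5w had signals of 546, 466, 213 and 213, against 270.1, 341, 445 and 564 in MC/water. The difference was -0.23 ± 0.31 at 5w and 0.03 ± 0.31 at 10w, with 95% intervals of -0.87 to 0.41 and -0.60 to 0.66. The largest step between neighbouring group means, 0.23, was below the SD within groups of 0.47. That SD was exceeded by 11.9% of the 10910 genes, whose median was 0.24. The APAP/PB animals at 10w were alike, at 551, 578, 582 and 574, while the DEN30/PB animals of that week had 273, 789, 479.9 and 229.8. Nr1i3 was lower in array set 1 than in set 2 in 12 of 14 groups, by 0.31 on average.

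Rxra, the shared partner, had the narrowest range of group means among the 9 members, 0.29 on the log2 scale. Its mean signal at 5w was 322 ± 52.7 in MC/water, 327 ± 84 in MC/PB, 332 ± 64.1 in DEN3/PB, 326 ± 28.1 in DEN30/PB, 347 ± 82.9 in TAA/PB, 353 ± 33.9 in MP/PB and 371 ± 107 in APAP/PB (SD, n = 4 or 5). At 10w it was 291 ± 27.4 in MC/water, 302 ± 30.8 in MC/PB, 343 ± 105 in DEN3/PB, 329.8 ± 73.3 in DEN30/PB, 323 ± 52.4 in TAA/PB, 349 ± 74.2 in MP/PB and 321 ± 44.7 in APAP/PB. The largest step between neighbours, 0.08, was below the SD within groups of 0.28. Against MC/water the mean of the PB groups differed by 0.07 ± 0.14 at 5w and 0.14 ± 0.15 at 10w, with intervals of -0.21 to 0.36 and -0.16 to 0.45.

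Hnf4a was lower with PB at 5w. The 4 MC/water animals had signals of 16505, 13522, 18268 and 15928, and the MC/PB animals had 9726, 10326, 11209.9 and 12286. These groups did not overlap, and the difference was -0.56 ± 0.12 (fold 0.680, limma adjusted p = 0.0114). The other 2 probe sets of the gene gave -0.54 and -0.48, with adjusted p of 0.0548 and 0.171. Averaged over the 6 PB groups the difference was -0.35 ± 0.09 (adjusted p = 0.0228), and 19 of 27 PB animals lay below all 4 MC/water animals. The call of MC/PB was lost within either array set (-0.73 and -0.38, adjusted p 0.142 and 0.403), without MC/water replicate 3 (-0.49, adjusted p 0.0622) and without MC/PB replicate 1 (-0.50, adjusted p 0.0736). That of all PB groups was lost without MC/water replicate 1, 3 or 4, at values of -0.33, -0.28 and -0.35, within the array sets, at -0.45 and -0.25, and with either other probe set, at -0.23 and -0.33.

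At 10w the same comparison of Hnf4a gave -0.10 ± 0.13, with MC/water at 11516, 12066, 17250.1 and 13329 and MC/PB at 9515, 12358, 14461 and 14323. The effect of PB at 10w minus that at 5w was 0.46 ± 0.18 with a limma adjusted p of 1 and an unadjusted p of 0.0133, so the weeks were not shown to differ. Over all groups the mean signal at 5w was 16056 ± 1960.4 in MC/water, 10887 ± 1114 in MC/PB, 12698 ± 2049 in DEN3/PB, 12951 ± 1942 in DEN30/PB, 12939 ± 1014 in TAA/PB, 13542 ± 1614 in MP/PB and 12739.5 ± 1450.2 in APAP/PB (SD, n = 4 or 5). The 10w mean was 13540.4 ± 2587 in MC/water, 12664 ± 2309 in MC/PB, 12669.5 ± 1774 in DEN3/PB, 11776 ± 831 in DEN30/PB, 12354 ± 1059.8 in TAA/PB, 11268 ± 992 in MP/PB and 11594 ± 1274 in APAP/PB. The step from MP/PB up to MC/water at 5w, at the top of the order, was the only one of 13 that exceeded the SD within groups (0.25 against 0.18).

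**Figure D2:**
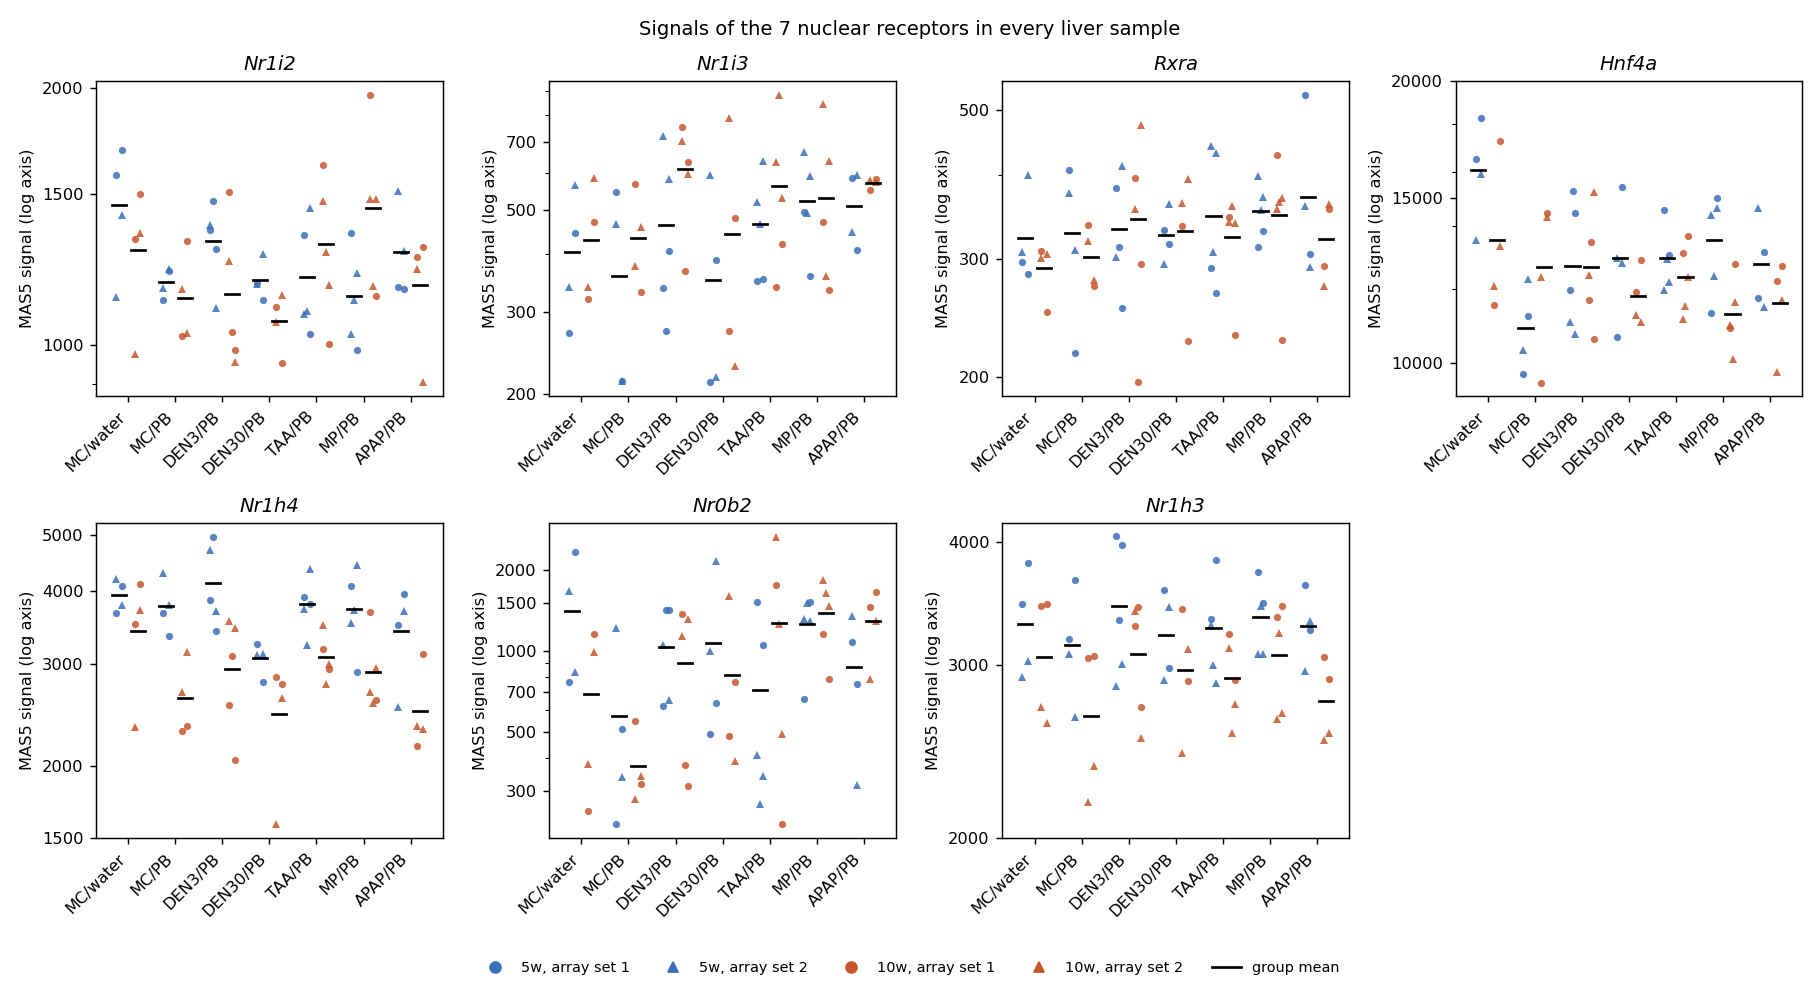
MAS5 signal on a log axis for the 7 receptor genes in every animal, by treatment, at 5w (blue) and 10w (orange). Circles and triangles are array sets 1 and 2, and bars are group means. Hnf4a in MC/water at 5w stands at a mean of 16056 against 10887 in MC/PB, and Nr1h4 lies lower at 10w than at 5w in every PB group.

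FXR, encoded by Nr1h4, was called between the weeks and in no comparison of treatments within a week. Its mean signal at 5w was 3942 ± 248 in MC/water, 3776 ± 396 in MC/PB, 4131 ± 672 in DEN3/PB, 3066 ± 191 in DEN30/PB, 3811 ± 408 in TAA/PB, 3735 ± 581 in MP/PB and 3424 ± 628 in APAP/PB (SD, n = 4 or 5). At 10w it was 3419 ± 767 in MC/water, 2616 ± 393 in MC/PB, 2940.3 ± 638 in DEN3/PB, 2455 ± 584 in DEN30/PB, 3077 ± 279 in TAA/PB, 2899 ± 469 in MP/PB and 2486 ± 427 in APAP/PB. MC/PB differed from MC/water by -0.07 ± 0.13 at 5w and -0.36 ± 0.18 at 10w, with limma adjusted p of 0.934 and 0.379. The 4 DEN30/PB animals at 5w had 3244, 3111, 2795 and 3114, all below the 5 DEN3/PB animals, whose lowest, median and highest signals were 3414, 3866 and 4959. That difference was -0.41 ± 0.12 and did not pass (adjusted p = 0.595, unadjusted 0.00232). No step between neighbouring means exceeded the SD within groups of 0.24.

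SHP, encoded by Nr0b2, varied more between animals of a group than nearly all genes. Its SD within groups was 0.85 on the log2 scale, and 0.541% of genes had a larger one. The 5 TAA/PB animals at 10w had signals of 1757, 2642, 227, 1254 and 489. The mean signal at 5w was 1400.1 ± 744 in MC/water, 573 ± 445 in MC/PB, 1032 ± 388 in DEN3/PB, 1070.1 ± 752 in DEN30/PB, 717 ± 543 in TAA/PB, 1257 ± 350.2 in MP/PB and 873 ± 444 in APAP/PB (SD, n = 4 or 5). The 10w mean was 693 ± 443 in MC/water, 373 ± 120.4 in MC/PB, 902 ± 516 in DEN3/PB, 809.8 ± 552 in DEN30/PB, 1274 ± 977 in TAA/PB, 1378 ± 413 in MP/PB and 1294 ± 369 in APAP/PB. MC/PB had the lowest mean of its week both times. At 5w its animals had 227, 1217, 511 and 339 against 763, 1672, 2329 and 837 in MC/water, which overlap, and the difference of -1.37 ± 0.52 did not pass (limma adjusted p = 0.265). At 10w the MC/PB animals had 549, 279.7, 320.5 and 342, below all 5 MP/PB and all 4 APAP/PB animals, which began at 788.0 and 787.8. Those differences were 1.80 ± 0.54 and 1.72 ± 0.57, with adjusted p of 0.331 and 0.532. A fit on the compared groups alone, which left out the other treatments, gave 0.0105 and 0.0175.

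LXR alpha, encoded by Nr1h3, had the lowest SD within groups of the 9 members, 0.18, and small differences between groups. Its mean signal at 5w was 3306 ± 411 in MC/water, 3144 ± 413 in MC/PB, 3445 ± 549 in DEN3/PB, 3222 ± 335 in DEN30/PB, 3270.2 ± 374 in TAA/PB, 3358 ± 281 in MP/PB and 3289.9 ± 270.1 in APAP/PB (SD, n = 4 or 5). At 10w it was 3061 ± 455 in MC/water, 2664 ± 459 in MC/PB, 3076 ± 419 in DEN3/PB, 2966 ± 412 in DEN30/PB, 2908 ± 274 in TAA/PB, 3070.5 ± 380.2 in MP/PB and 2761 ± 264 in APAP/PB. The difference of all PB groups from MC/water was -0.01 ± 0.09 at 5w and -0.07 ± 0.10 at 10w, with intervals of -0.19 to 0.17 and -0.28 to 0.13. Its 7 lowest means were those of the 10w groups. Array set 1 was higher than set 2 in 14 of 14 groups, by 0.23 on average.

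Por, which passes electrons from NADPH to every microsomal P450, was called in more comparisons with MC/water than any other member. At 5w the MC/water animals had signals of 1466, 802, 1562 and 1114 and the MC/PB animals 3743, 2534, 2116 and 1583. At 10w MC/water had 1305, 1176, 1482 and 1245 and MC/PB 5526, 2896, 3472 and 2494. On the other Por probe set these groups overlapped at 5w, with 375 to 980 in MC/water and 743 to 2171 in MC/PB. On the probe set used, MC/PB lay above MC/water in every animal at both weeks. The difference was 0.97 ± 0.25 at 5w (fold 1.96, limma adjusted p = 0.0453) and 1.39 ± 0.26 at 10w (fold 2.61, adjusted p = 0.00197). The 10w call was lost within array set 2 (1.14, adjusted p 0.207). The difference between the weeks in this effect was 0.41 ± 0.38, with an adjusted p of 1.

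On the Por probe set used, the signal of all 27 PB animals exceeded that of the highest MC/water animal at 5w. The lowest value was 1583 under PB and the highest 1562 with water. At 10w 26 of 27 PB animals did so, and the exception was DEN30/PB replicate 4 at 1471 against 1482. The other probe set overlapped at 5w, where MC/water reached 980 and MC/PB, DEN30/PB and MP/PB began at 743, 832 and 888. At 10w MC/water reached 805 on it and DEN30/PB began at 675. On the probe set used, the mean of the 6 PB groups exceeded MC/water by 1.21 ± 0.19 at 5w (limma adjusted p = 1.15e-04) and 1.45 ± 0.20 at 10w (adjusted p = 9.90e-06). The mean Por signal at 5w was 1236 ± 347 in MC/water, 2494 ± 919 in MC/PB, 2994 ± 488 in DEN3/PB, 2409 ± 623 in DEN30/PB, 2950.1 ± 499 in TAA/PB, 3219 ± 903 in MP/PB and 3409.8 ± 1294 in APAP/PB (SD, n = 4 or 5). The 10w mean was 1302 ± 131 in MC/water, 3597 ± 1347 in MC/PB, 3929 ± 986 in DEN3/PB, 3005 ± 1150.4 in DEN30/PB, 3636 ± 414 in TAA/PB, 4056 ± 964 in MP/PB and 4219 ± 1334 in APAP/PB. Both MC/water means were lowest, and the step above them was the only one of 13 that exceeded the SD within groups (0.84 against 0.39).

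Each initiated group also exceeded MC/water in Por. At 5w the differences were 1.29 in DEN3/PB, 0.96 in DEN30/PB, 1.27 in TAA/PB, 1.37 in MP/PB and 1.42 in APAP/PB. At 10w they were 1.55, 1.10, 1.46, 1.59 and 1.63 in the same order, with limma adjusted p from 1.32e-04 to 0.0159. Of the 9 members, Por alone was called in the DEN3/PB, DEN30/PB, TAA/PB and APAP/PB groups at 5w, where 1.53%, 1.79%, 2.32% and 2.62% of all genes were, and Por and Alas1 in MP/PB, beside 3.15%. At 10w Por alone was called in DEN3/PB, DEN30/PB, TAA/PB, MP/PB and APAP/PB, beside 3.63%, 3.18%, 5.35%, 5% and 5.22% of all genes.

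Several of the Por calls were lost under other settings. With the other probe set, those of DEN3/PB (1.30), DEN30/PB (1.02), TAA/PB (1.24) and MP/PB (1.26) at 5w and of DEN30/PB at 10w (1.30) were lost, at limma adjusted p of 0.0565 to 0.260. The 5w call of MC/PB was lost with the other probe set (0.87, limma adjusted p 0.434), within array set 1 (0.88, 0.258) and set 2 (1.06, 0.0992), and without any one of MC/PB replicates 1 to 3 or MC/water replicates 1, 2 and 4 (values from 0.76 to 1.07). That of DEN30/PB was lost without DEN30/PB replicates 1 to 3 or MC/water replicate 2 or 4, at 0.77 to 1.02, and at 10w without DEN30/PB replicate 2 or 3 or MC/water replicate 2, at 0.93 to 1.05. Within set 1 the 5w calls of DEN3/PB (1.0, 0.113), TAA/PB (1.18, 0.0985) and DEN30/PB (0.73, 0.391) and the 10w call of DEN30/PB (1.21, 0.106) were lost. Within set 2 the 10w calls of DEN3/PB (1.41, 0.0888), DEN30/PB (0.98, 0.200) and APAP/PB (1.38, 0.05002) were lost. With no filter, all probe sets tested, their mean or only the compared groups, the 5w calls of MC/PB (adjusted p 0.0596, 0.0650, 0.178 and 0.151) and DEN30/PB (0.0553, 0.0586, 0.110 and 0.0895) were lost, and with only the compared groups that of DEN30/PB at 10w (0.0570). The call over all 6 PB groups was kept in every alternative at both weeks, with an adjusted p of at most 0.0207 at 5w and 0.0116 at 10w. Por was higher in array set 1 than in set 2 in 14 of 14 groups, by 0.45 on average.

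**Figure D3:**
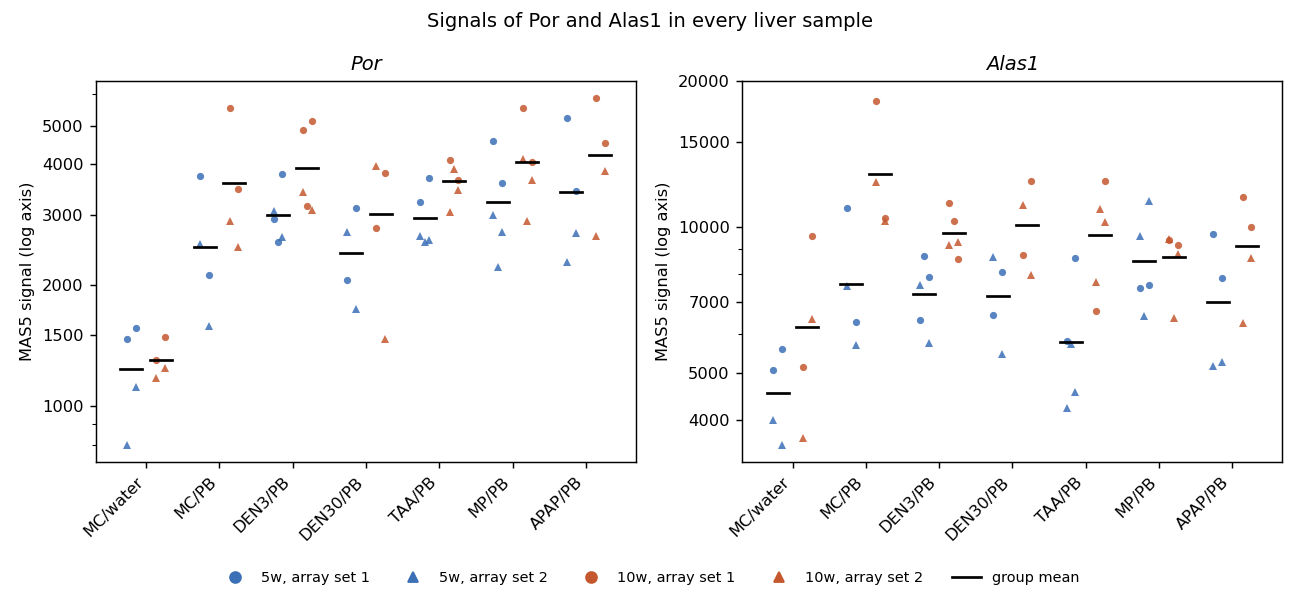
MAS5 signal on a log axis for Por and Alas1 in every animal, by treatment, at 5w (blue) and 10w (orange). Circles and triangles are array sets 1 and 2, and bars are group means. On the probe set shown, Por exceeds the highest MC/water animal in 27 of 27 PB animals at 5w and 26 of 27 at 10w. Alas1 does so in 22 and 13, with a mean of 12827 in MC/PB at 10w.

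Alas1, the limiting enzyme of heme synthesis in liver, was also higher with PB. At 5w the MC/water animals had signals of 5059, 3994, 5588 and 3553 and the MC/PB animals 10917, 7545, 6350.5 and 5692. At 10w MC/water had 5128, 3660.4, 9570.0 and 6456 and MC/PB 18196, 12395, 10432 and 10286. The groups did not overlap at either week, and MC/water replicate 3 was the highest control at 10w. The difference was 0.72 ± 0.23 at 5w (fold 1.65, limma adjusted p = 0.134, not called) and 1.09 ± 0.23 at 10w (fold 2.13, adjusted p = 0.00587). The call at 10w was kept when any 1 animal was left out, with adjusted p up to 0.0484. It was lost within array set 1 (0.97, adjusted p 0.336) and set 2 (1.21, 0.0736), and with only the compared groups in the fit (adjusted p 0.0619).

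Over all groups the mean Alas1 signal at 5w was 4549 ± 938 in MC/water, 7626 ± 2324 in MC/PB, 7279.7 ± 1175 in DEN3/PB, 7193 ± 1441 in DEN30/PB, 5789 ± 1731 in TAA/PB, 8492 ± 1909 in MP/PB and 6984 ± 2174 in APAP/PB (SD, n = 4 or 5). At 10w it was 6204 ± 2518 in MC/water, 12827 ± 3706 in MC/PB, 9703 ± 1034 in DEN3/PB, 10068 ± 2069 in DEN30/PB, 9599.8 ± 2347 in TAA/PB, 8661 ± 1243 in MP/PB and 9116 ± 2202 in APAP/PB. No step between neighbours exceeded the SD within groups of 0.35. The mean of the 6 PB groups exceeded MC/water by 0.64 ± 0.17 at 5w (limma adjusted p = 0.0248) and 0.74 ± 0.17 at 10w (adjusted p = 0.00627). At 5w 22 of 27 PB animals exceeded all MC/water animals, and at 10w 13 of 27 did. The 5w call was lost without MC/water replicate 2 (0.59, adjusted p 0.0968) or 4 (0.53, 0.167), and within either array set (0.54 and 0.75). The 10w call was lost within set 1 (0.58, 0.351) and without MC/water replicate 2 (0.51, 0.0976).

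Among the initiated groups Alas1 was called against MC/water in MP/PB at 5w (0.89 ± 0.21, limma adjusted p = 0.0149), a call lost within array set 1 (0.50) and without MC/water replicate 4 or MP/PB replicate 5 (adjusted p 0.0755 and 0.0613). At 10w the 5 initiated groups differed from MC/water by 0.55 to 0.76, with adjusted p from 0.0566 to 0.151. Without MC/water replicate 3 all 5 were called for Alas1, at 0.79 to 1.0. MC/PB had the highest mean at 10w, and MP/PB and APAP/PB differed from it by -0.54 ± 0.22 and -0.49 ± 0.23, which did not pass (adjusted p = 0.537 and 0.793).

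The question whether an initiator changed these genes under PB was addressed by comparing each initiated group with MC/PB, whose 4 animals all these comparisons of a week share. No member was called by limma in any of them. At 5w 0 of 9 were called after DEN3, DEN30, TAA, MP and APAP, beside 0.0381%, 0.114%, 0.0191%, 0.0572% and 0% of all genes. An unadjusted p under 0.05 was found for 0, 1, 1, 2 and 0 members, beside 5.17%, 5.81%, 5.63%, 8.09% and 7.20% of all genes. At 10w 0 of 9 were called in the same order beside 0.019%, 0.0284%, 0.00948%, 0.0853% and 0.0664%. The counts at an unadjusted p under 0.05 were 0, 0, 1, 2 and 2, beside 4.59%, 5.20%, 4.62%, 7.68% and 6.11% of all genes. Between the DEN doses 0 of 9 were called at 5w, beside 0.00953%, and 0 at 10w, beside 0%. Before adjustment 1 and 0 were under 0.05, beside 4.90% and 4.27% of all genes. Few genes of any kind passed here, so these counts set no bound on the effect of an initiator.

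The sizes that these data allow differ by member. For Por after MP at 10w the difference from MC/PB was 0.21 ± 0.25, with an interval of -0.30 to 0.71, and after DEN30 it was -0.29 ± 0.26, with -0.82 to 0.24. For Hnf4a at 5w, on the probe set used, all 5 initiated groups lay above MC/PB, by 0.21 to 0.31, with limma adjusted p of at least 0.428. The sizes differed on the other probe sets. On the first of them DEN30/PB and MC/PB had mean log2 levels of 9.526 and 9.523. On the remaining probe set APAP/PB had 10.20 and MC/PB 9.66. For Nr1i3 after MP at 5w the difference was 0.59 ± 0.30, with an interval of -0.01 to 1.20.

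Between 5w and 10w the same animals were compared after 5 more weeks of age, of PB in all groups but MC/water, and after the operation, and these cannot be told apart. The main fit took the 2 samples of a rat as independent. Over the 6 PB groups 4 of 9 members changed, where 24.6% of 10910 genes did: Nr1h4 and Nr1h3 fell, and Por and Alas1 rose. With the animal as a block these 4 stayed called, and 3715 genes were called instead of 2682. The values that follow are from the fit without that block. Nr1h4 was lower at 10w in 27 of 27 PB animals and in 3 of 4 MC/water animals, with fitted differences (10w minus 5w) of -0.42 ± 0.06 and -0.23 ± 0.16 (SE). The limma adjusted p under PB was 7.98e-07. Alas1 was higher in 24 of 27 PB animals, by 0.47 ± 0.09 (adjusted p = 6.25e-05), and in 3 of 4 MC/water animals by 0.38 ± 0.24, which did not pass. Por was higher in 25 of 27, by 0.35 ± 0.10 (adjusted p = 0.00780), against 2 of 4 and 0.11 ± 0.27 with water. Nr1h3 was lower in 25 of 27, with a difference of -0.18 ± 0.05 (adjusted p = 0.00414), and in 4 of 4 with water, with -0.11 ± 0.13.

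The change under PB minus the change with water was -0.18 ± 0.17 for Nr1h4, -0.07 ± 0.13 for Nr1h3, 0.24 ± 0.28 for Por and 0.09 ± 0.25 for Alas1. By limma 0 of 9 members were called in this difference, beside 0.00917% of all genes. An unadjusted p under 0.05 was found for 0 members, beside 5.22% of all genes. For MC/PB alone 0 of 9 were called, beside 0%, with 1, Hnf4a, under 0.05 unadjusted, beside 4.51%. The Por call over time was lost with the other probe set (0.39, adjusted p 0.0711) and within set 1 (0.36, 0.0570) and set 2 (0.32, 0.0618). Cell markers were also called between the weeks under PB, where 1385 of all 10910 genes rose and 1297 fell. There 5 of 7 sinusoidal endothelial and 6 of 10 stellate and fibroblast markers fell, and 1 of 7 hepatocyte markers did. Of 4 biliary markers Epcam rose (0.41 ± 0.08) and Spp1 fell (-0.43 ± 0.12). Of 8 Kupffer markers limma called 0, with 1 at an unadjusted p under 0.05, beside 34.8% of all genes. The summed sinusoidal markers ran from 10541 to 12230 in MC/PB at 5w and from 7835 to 9373 at 10w, and the stellate and fibroblast markers from 6899.8 to 12876 and from 7325 to 9539.8. With plain water the sinusoidal sums were also lower at 10w, from 11372 to 12016.5 in MC/water at 5w and from 8743 to 10226.8 at 10w. The stellate and fibroblast sums there ran from 6923 to 11871 and from 7322 to 8184. The part of these markers in the changes of the members was not tested.

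Within single treatments 1 change over time passed. By limma Nr1h4 was called in DEN3/PB (-0.50 ± 0.15, adjusted p = 0.0428), 1 of 9 members beside 2.89% of all genes. It did not stay called within array set 1 (-0.67) or set 2 (-0.25), and was lost without any one of 6 of the 10 samples, at -0.53 to -0.38. None of the 9 was called in MC/water, MC/PB, DEN30/PB, TAA/PB, MP/PB and APAP/PB, beside 0.0458%, 1.31%, 0%, 1.77%, 1.34% and 1.47%. Before adjustment 1, 2, 2, 2, 3 and 1 were under 0.05, beside 6.53%, 11.5%, 8.01%, 12.5%, 12.0% and 12.3% of all genes. With the animal as a replicate block, which pairs both samples of a rat, Nr1h4 was also called in MC/PB (-0.53, adjusted p 0.0115) and APAP/PB (-0.45, 0.0312), and Alas1 in MC/PB (0.75, 0.00819) and TAA/PB (0.74, 0.00304). In MP/PB Alas1 was higher at 10w in 2 of 5 animals, with a mean change of 0.04, and in MC/PB in 4 of 4, with a mean of 0.75. The difference between these changes was not tested.

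**Figure D4:**
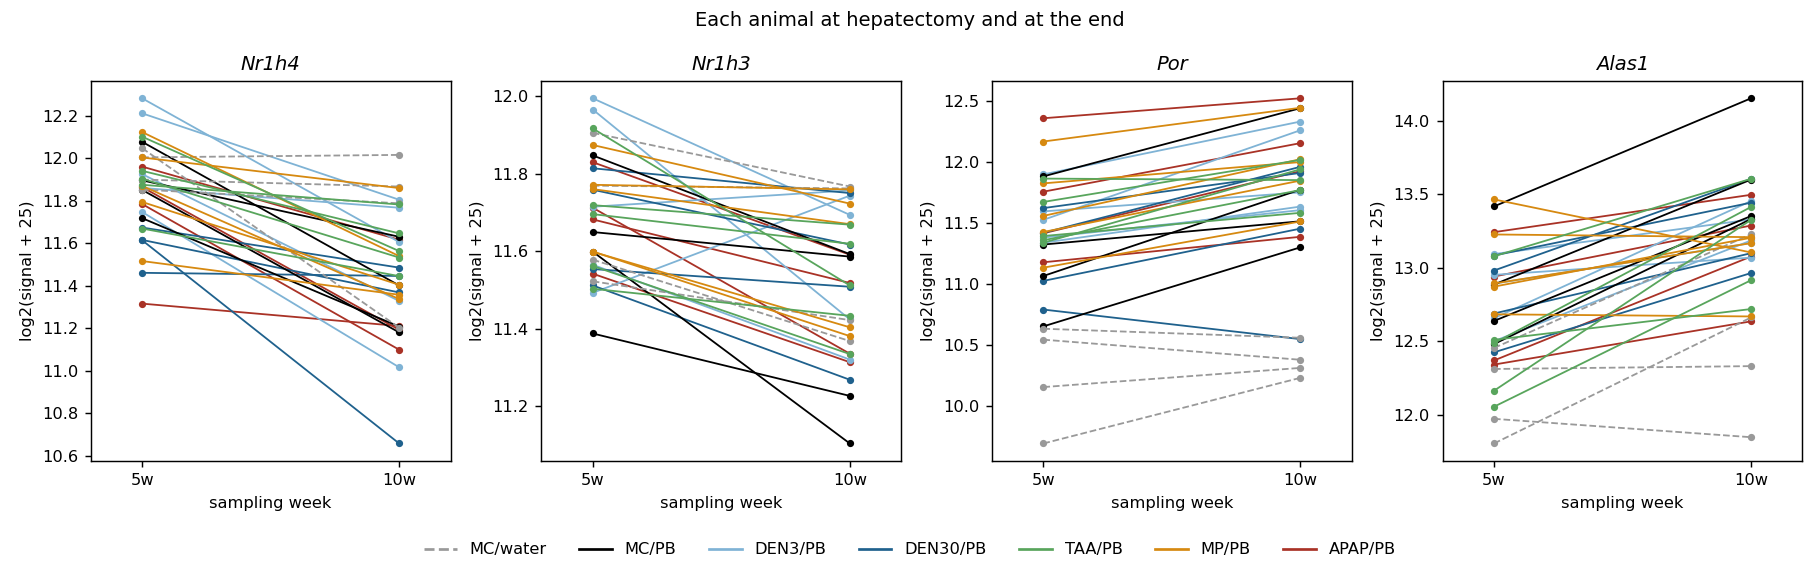
Level as log2(signal + 25) of Nr1h4, Nr1h3, Por and Alas1 in each of the 31 animals at 5w and 10w. Lines join the samples of one animal and colours give the treatment, with MC/water dashed. Nr1h4 falls in all 27 PB animals, Nr1h3 in 25, while Por rises in 25 and Alas1 in 24.

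Although the Nr1i3 transcript was not called between groups, animals with more of it had more Por. The mean of each of the 14 cells of group and array set was removed, so fewer than 31 of the deviations of the 31 animals are independent. These deviations correlated at Pearson r = 0.926 and Spearman rho = 0.932 at 5w. Both permutation p were 1e-05, the smallest that 100000 two-sided resamples within these cells can give, and 0.00072 after Benjamini-Hochberg adjustment over 72 pairs of members and weeks. At 10w, in the same animals, r was 0.832 (permutation p = 0.00109, adjusted 0.0392) and rho 0.740 (p = 0.00192, adjusted 0.0691). Without the 2 animals farthest from the median of Nr1i3, r was 0.925 at 5w and 0.731 at 10w. At both weeks these were DEN30/PB replicates 2 and 4, the 2 animals of a single cell, whose deviations mirror each other. Within array set 1 r was 0.916 and 0.853, and within set 2 it was 0.951 and 0.822. The other Por probe set gave 0.800 and 0.850. Between the sets themselves the genes went opposite ways, Por higher and Nr1i3 lower in set 1.

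**Figure D5:**
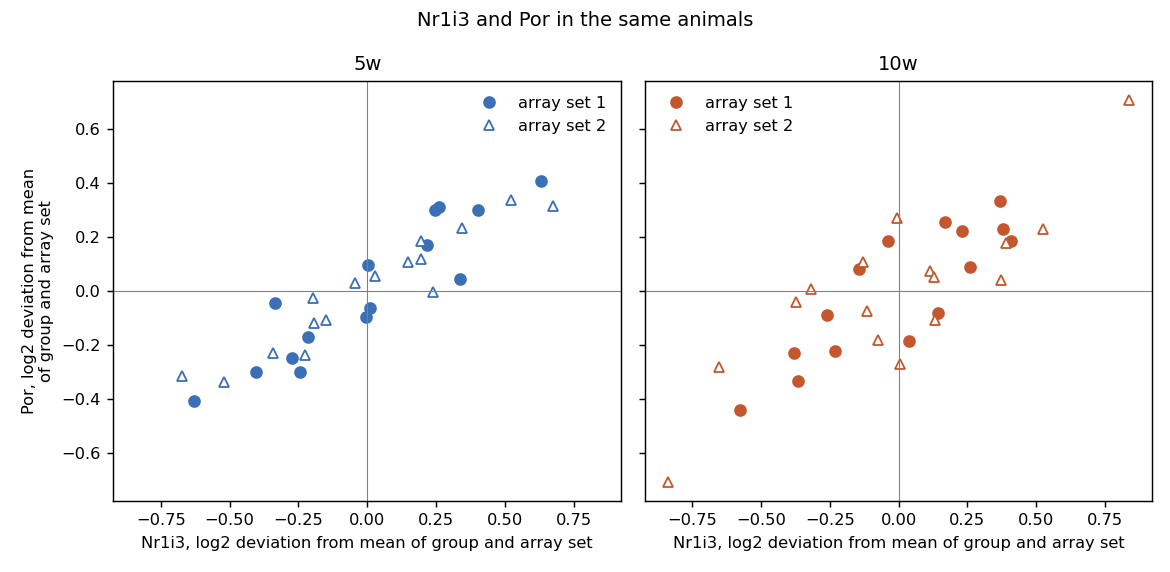
Deviation of each animal's log2(signal + 25) from the mean of its group and array set, Nr1i3 on the x axis and Por on the y axis, at 5w and 10w. Filled circles are array set 1 and open triangles set 2. The points rise together at both weeks, with r = 0.926 and 0.832, and cells of 2 animals give points that mirror each other.

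The correlations of Alas1 with both were lower, and their difference from that of Nr1i3 and Por was not tested. With Nr1i3 its r was 0.607 at 5w (permutation p = 0.0321, adjusted 0.257) and 0.637 at 10w (p = 0.0044, adjusted 0.106), and with Por 0.659 (p = 0.0113, adjusted 0.163) and 0.519 (p = 0.00984, adjusted 0.163), so none passed the adjustment over 72 pairs. The same deviations were also compared between the weeks of an animal, in 9 tests with permutation p. Por at 5w and 10w correlated at r = 0.788 (adjusted p = 0.00504) and rho = 0.838 (0.00504), with 0.762 without the 2 farthest animals, 0.875 within set 1 and 0.743 within set 2. Nr1i3 gave r = 0.672 (adjusted p = 0.0456) and rho = 0.640 (0.053), and Alas1 r = 0.626 (0.0456) and rho = 0.606 (0.0516). Without the 2 farthest animals these were 0.543 and 0.556. For Por and for Nr1i3 the animals left out were the 2 of a single cell. Nr0b2 gave r = -0.191 (adjusted p = 0.485). For Nr1i2 r was 0.587 (adjusted p = 0.118), for Hnf4a 0.400 and Nr1h4 0.383 (both 0.118), for Rxra 0.152 and for Nr1h3 0.188 (both 0.485).

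Other genes of these pathways were counted from lists of known CAR and PXR targets, heme genes, electron partners and receptor targets. These lists were chosen with earlier results of these data known, so the counts are a description. Of 18 measured CAR and PXR targets 10 rose in MC/PB at 5w and 12 at 10w by limma, and 0 fell, where 1.26% and 2.26% of all genes were called. The medians over these 18 targets were 1.00 and 1.05. The firmest at 5w were Ugt2b1, a glucuronosyltransferase (2.32 ± 0.14), Aldh1a1, an aldehyde dehydrogenase (4.08 ± 0.32), Ces2c, a carboxylesterase (3.37 ± 0.27), and Abcc3, a basolateral conjugate exporter (3.92 ± 0.32). At 10w they were Aldh1a1 (4.0 ± 0.20), Abcc3 (5.49 ± 0.34), Gsta3 (4.38 ± 0.31) and Ugt2b1 (2.75 ± 0.20), with adjusted p of at most 6.75e-11.

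Other heme genes were counted in the same comparisons. Of 11 other measured genes of heme synthesis and transport, 0 were called by limma in MC/PB at 5w or 10w, with 1 and 2 at an unadjusted p under 0.05. Against MC/water, over all PB groups, Abcb6, a porphyrin transporter, rose at 5w (0.32 ± 0.09, limma adjusted p = 0.0348), and at 10w the mitochondrial unfoldase Clpx (-0.36 ± 0.08, 0.00570) and the mitochondrial transporter Abcb10 (-0.26 ± 0.08, 0.0358) fell. These are 1 of 11 at 5w and 2 of 11 at 10w, where 4.23% and 8.48% of all genes were called, and the median over the 11 was -0.06 and -0.10. Of 6 genes of heme breakdown and binding, Blvrb, a biliverdin reductase, rose at 5w (0.49 ± 0.11) and 10w (0.51 ± 0.14). Of 5 other genes listed as electron partners 2 rose at 5w and 4 at 10w over all PB groups. The cytochrome Cyb5a (0.31 ± 0.06 and 0.42 ± 0.06) and the heme-binding Pgrmc1 (0.29 ± 0.05 and 0.29 ± 0.05) rose at both weeks. Fdx1 (0.41 ± 0.09) and Cyb5b (0.39 ± 0.11) rose at 10w. Between the weeks under PB 5 of the 11 heme synthesis genes fell, where 1297 of all 10910 genes did. The 4 with the smallest p were Clpx (-0.35 ± 0.04), Alad (-0.24 ± 0.04), the next enzyme after Alas1, the transporter Abcg2 (-0.52 ± 0.12) and Ppox (-0.20 ± 0.06), a late enzyme of the pathway.

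Targets of the other receptors were counted against MC/water over all PB groups, where 4.23% of all genes were called at 5w and 8.48% at 10w. Of 13 HNF4 alpha targets 2 fell at 5w, the gluconeogenic Pck1 (-0.44 ± 0.12) and the tyrosine-degrading Tat (-0.75 ± 0.22), and at 10w Tat (-0.82 ± 0.19) and Apoa4 (-0.83 ± 0.24) fell and Apoa1 rose (0.26 ± 0.08). Of 12 FXR and SHP targets, Fgfr4, the receptor of the bile acid signal from the gut, fell at 5w (-0.33 ± 0.10) and 10w (-0.57 ± 0.12), and the phospholipid exporter Abcb4 (-0.44 ± 0.09) and the bile acid conjugating Baat (-0.33 ± 0.08) fell at 10w. Of 10 LXR targets measured at 5w and 11 at 10w, Lpl, a lipoprotein lipase, rose at both weeks (1.55 ± 0.30 and 3.11 ± 0.31), while Abcg5 fell at 5w (-1.26 ± 0.30) and Pltp at 10w (-1.07 ± 0.23). Of the biliary markers, 1 of 4 rose, Epcam, by 0.92 ± 0.12 and 1.31 ± 0.18, at 5w and 10w. The summed biliary markers ran from 4743 to 6776 in MC/water and from 5690.5 to 6691 in MC/PB at 5w, and from 5001 to 5973 and 6312 to 6696 at 10w. Of 7 sinusoidal markers Kdr fell at 10w over all PB groups (-0.24 ± 0.07). Of the stellate and fibroblast markers Col1a1 alone was called in DEN30/PB at 5w (1.03 ± 0.25), beside 1.79% of all genes. Col3a1 alone was called in MP/PB at 5w (0.53 ± 0.14), beside 3.15%. Only Col1a1 (0.93 ± 0.23) and Col3a1 (0.47 ± 0.12) were called in DEN30/PB at 10w, beside 3.18%. Of the Kupffer markers Cd68 alone was called in TAA/PB at 10w (-0.66 ± 0.18), beside 5.35%. The part of these markers in the values of the members was not tested.

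The genes whose 14 group means were most like those of a member were named over 10910 genes by Pearson r, as a description. For Por they were Gstm1 (0.971), Ephx1 (0.969) and App (0.967). For Alas1 they were Ugt2b34l1 (0.939), Erap1 (0.928) and Tsku (0.913), for Nr1h4 Nrbp2 (0.960), Slc29a1 (0.941) and Coq8a (0.941), and for Nr1h3 Sez6 (0.935), Ets1 (0.927) and Atg9a (0.924). For Hnf4a they were Kctd6 (0.912), Efna5 (0.878) and Gpat4 (0.877), for Nr1i3 Slc10a3 (0.896), Grina (0.895) and Osbpl9 (0.876), and for Nr0b2 Jade1 (0.895), RT1-CE12 (0.856) and Zmiz1 (0.853). Nr1i2 was followed least closely, with Dgcr6 (0.826), Ndufb7 (0.816) and Gfus (0.816), and Rxra had Mdp1 (0.893), C1qtnf2 (0.861) and Tinf2 (0.856). The means share animals and arrays.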

How the data were processed

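Affymetrix arrays were run by the authors on liver RNA of 62 samples from 31 rats. Deposited values are linear MAS5 signal intensities, for which the submitters' processing notes name MAS5 5.0. The sources used here do not name the array model or the scaling target. The 2% trimmed mean lay between 500.2 and 500.3 on all arrays, so their scaling was kept, and median signals were 99.3 to 125.7. Groups came from the labels. Probe sets with 1 gene symbol (20826, for 14217 genes) were used; 436 with several, 9780 with none and 57 controls were left out.

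Signals were offset by 25 and log2 transformed. Probe sets reaching 100 on at least 4 arrays were kept, and the one with the highest mean stood for a gene. Contrasts were fitted with limma 3.58.1 in R 4.3.3 (lmFit, eBayes with trend), two-sided, on the 31 arrays of a week or on all 62 for time, with Benjamini-Hochberg adjustment over all genes tested (10491, 10546 and 10910). P-values within a week measure the spread between animals. The averages over 6 PB groups and the correlations between members were added after the data were seen, and the array sets were known from earlier work on these data. The members and lists were chosen with earlier results of these data known.

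All 9 members were named in every comparison, with up to 4 called genes of smallest p per described list, the 3 most similar genes per member and 4 hepatocyte markers. The series' design text says that one animal gave both samples. As a check of this pairing, residuals of same-animal samples correlated at 0.210 to 0.392 in 31 of 31 pairs, against -0.271 to 0.104 in 108 other pairs. Alternatives were no offset, an offset of 100, no filter, quantile normalization, all or other probe sets, their mean, the array set as a block, the animal or replicate number as a block, each set alone, the compared groups alone and leaving out each sample. Steps were tested on simulated data. Promoters came from RefSeq (GRCr8).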

Additional observations from a re-analysis of the deposited data

Results flagged for a closer look

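In 126 groups of 4 or 5 animals tested for a lone value, 6 held one far from the others, and chance gives about 1 in 20. Nr1i2 in APAP/PB replicate 4 at 10w had a signal of 904.7, where the next animal had 1226 and the farthest 1302. Rxra in MC/water replicate 3 at 10w had 249.9, with the others between 300.7 and 307.4, and in TAA/PB replicate 3 at 10w it had 230.5, with the others between 339.5 and 359.4. Nr1h4 in DEN30/PB replicate 2 at 10w had 1590.1 against 2619.6 to 2843, and Nr0b2 in MP/PB replicate 1 at 5w had 659.3 against 1292.5 to 1519. Alas1 in MP/PB replicate 4 at 10w had 6488 against 8783 to 9442. All 6 were the lowest of their group.

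The Nr1i2 change from 5w to 10w had one sign in every animal of 3 treatments, and that sign differed between them. Nr1i2 was higher at 10w in 5 of 5 MP/PB animals, with a mean of 0.318 on the log2 scale, and lower in 4 of 4 MC/water animals (-0.176) and 4 of 4 DEN30/PB animals (-0.157). The other 4 treatments were mixed, with Nr1i2 higher at 10w in 1 of 4 MC/PB, 1 of 5 DEN3/PB, 3 of 5 TAA/PB and 2 of 4 APAP/PB animals. The difference between these treatments was not tested. None of the 3 changes passed on its own, with limma adjusted p of 0.288, 0.957 and 0.899.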

How the results depend on the processing

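Of 7830 recomputed values of 324 member results, 7726 kept their side of the threshold, 78 lost a call and 26 gained one. No called value changed sign, but 357 of the values that kept their side, none of them called, did. The number of members called in MC/PB at 5w (2) was 1 with no filter, with all probe sets tested, with the mean over probe sets and with only the compared groups, 0 within either array set, and 0 to 2 with a sample left out. There Hnf4a differed by -0.54 and -0.48 with the other probe sets, -0.73 within set 1, -0.38 within set 2 and -0.64 to -0.49 with a sample left out. Por differed by 0.87 with the other probe set, 0.92 with their mean, 0.88 and 1.06 within the sets, 0.97 with no filter, with all probe sets tested and with only the compared groups, and 0.76 to 1.17 with a sample left out.

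In MC/PB at 10w (2) the count was 1 within set 1 and with only the compared groups and 0 within set 2. Por differed by 1.14 within set 2, and Alas1 by 0.97 and 1.21 within the sets and 1.09 with only the compared groups. At 5w the counts of the initiated groups against MC/water were 0 within set 1 for DEN3/PB (1), TAA/PB (1) and DEN30/PB (1), and 1 for MP/PB (2). DEN30/PB also had 0 with no filter, all probe sets, their mean and the compared groups, and 0 to 1 with a sample left out, and MP/PB had 1 to 3. At 10w, against 1 each, the count was 2 with the array set as a block in DEN3/PB, DEN30/PB and TAA/PB. Within set 2 it was 0 in DEN3/PB, DEN30/PB and APAP/PB, and in DEN30/PB it was 0 within set 1 and with the compared groups alone. With a sample left out it was 0 to 2 in DEN30/PB and 1 to 2 in the other 4 initiated groups. Against MC/PB at 10w, 1 member instead of 0 was called after MP and after APAP with only the compared groups.

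Over time the count in MC/PB (0) was 1 with the array set as a block and 0 to 1 with a sample left out. In DEN3/PB (1) it was 0 with no filter, all probe sets, either set alone and the compared groups, and 0 to 1 with a sample left out. In TAA/PB (0) it was 1 with the array set as a block and within set 2, and 0 to 1 with a sample left out. Over all PB groups 3 members at 5w became 1 within either set and 1 to 3 with a sample left out, and 2 at 10w became 1 within set 1 and 1 to 2.

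The animal pairs both weeks, and with that replicate block 2 members were called over time in MC/PB, 1 in TAA/PB and 1 in APAP/PB. Within a week numbers name different animals, but animals numbered 1 to 4 shared the array set of their number, so correlations by number include that split. Every same-numbered pair correlated above 0.1 in 4 of 24 comparisons (DEN3 and DEN30 at 5w, MP and APAP at 10w), where the replicate block changed no call of a member. In the rest it raised the count to 2 in DEN3/PB and DEN30/PB against MC/water at 10w. The lowest member signals were 196 for Rxra and 212 for Nr1i3, where array medians ran from 99.3 to 125.7, and the limit that background sets on them was not tested. The cause of these changes was not tested.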

Other observations

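The genes that followed Nr1i3 most closely between animals at both weeks were looked up after the correlation with Por had been seen, as a description. After removal of the mean of each group and array set, 1 of 10909 genes at 5w and 2 at 10w correlated with Nr1i3 at least as highly as Por did, Por included. Ranked by the lower of the 2 weeks, they began with the carboxylesterase Ces2c (r = 0.887 at 5w and 0.848 at 10w), Por, Vav2 (0.757 and 0.735), Bnip3l (0.723 and 0.726), Gabarapl1 (0.797 and 0.718) and the exporter Abcc3 (0.718 and 0.817). Ces2c and Abcc3 are on the list of CAR and PXR targets. The median r over all genes was 0.01 at 5w and 0.03 at 10w.

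For Nr0b2 the ranking began with the transcription factor Foxo1 (0.615 and 0.603), Zdhhc22 (0.542 and 0.531) and Id2 (0.600 and 0.521). For Alas1 it began with the ceramide synthase Cers6 (0.744 and 0.685), Zwint (0.664 and 0.749) and Tsku (0.630 and 0.648). These genes share arrays with the members, and no test was made of them.

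Over the 6 PB groups against MC/water, some receptors outside the members were called. The clock repressor Nr1d1 rose by 1.17 ± 0.24 at 5w and 1.81 ± 0.28 at 10w (limma adjusted p = 0.00357 and 6.53e-05), and its relative Nr1d2 by 0.72 ± 0.17 at 5w. The dioxin receptor Ahr rose by 1.23 ± 0.21 at 10w. Nr2f6 fell at both weeks (-0.36 ± 0.09 and -0.25 ± 0.07) and the glucocorticoid receptor Nr3c1 at 10w (-0.42 ± 0.12). Of 21 measured other receptors 2 rose and 1 fell at 5w, and 2 rose and 2 fell at 10w, where 4.23% and 8.48% of all genes were called. Among 21 coregulators and liver factors, Foxa3 fell at both weeks (-0.68 ± 0.16 and -0.67 ± 0.17) and Egfr at 5w (-0.46 ± 0.13).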
